A study of Homo sapiens with 9 samples.

Results

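The genes described here carry the integrated stress response and the unfolded protein response, the programs by which a cell answers amino acid shortage and misfolded protein in the endoplasmic reticulum (ER). The list held 44 genes chosen by name, and 28 of them had a row with a gene name in the table, out of 14884 named genes in all. They were sorted by role into 15 genes of the ATF4 arm, 5 stress sensors and the factors they control, and 8 ER chaperones, folding enzymes and degradation factors. For a gene with several rows the row with the highest mean was used, which concerned only HYOU1. The array values of the other 16 genes were not analysed here: CEBPB, CEBPG, NUPR1, PPP1R15A, CHAC1, MTHFD2, ALDH1L2, HSPA5, HSP90B1, PDIA4, PDIA6, DNAJB9, DNAJC3, DNAJB11, HERPUD1 and EDEM1.

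RNA was measured in MDA-MB-231, an established triple-negative breast cancer cell line, with 3 Affymetrix Human Gene 2.0 ST arrays in each group. The groups were cells given 500 nM JQ1 for 12 h, cells given 500 nM JQ1 for 24 h, and control cells with no agent at time 0. JQ1 is a small molecule that binds the bromodomains of the BET proteins, readers of acetylated chromatin. The labels name no vehicle and give no control at 12 h or 24 h, so solvent and time in culture cannot be told apart from JQ1. Nothing says that the replicates came from separate cultures, and p-values then measure only how these samples spread, which may be technical.

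Cells sense these stresses through a few kinases and ER membrane proteins. PERK (EIF2AK3), activated by misfolded ER protein, and GCN2 (EIF2AK4), activated by uncharged transfer RNA, phosphorylate the translation factor eIF2, which lowers protein synthesis in general and raises translation of ATF4. ATF4 is a transcription factor of amino acid synthesis, transfer RNA charging and stress signalling genes. IRE1 (ERN1) splices the messenger of XBP1, and ATF6 is cut in the Golgi to release a transcription factor, and both act on genes of ER chaperones and of ER-associated degradation.

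The promoters of some of these genes carry short elements through which these factors are known to act. The 5 promoters shown are examples picked among genes whose window holds a match. The sequences are from RefSeq, build GRCh38.p14, 5′ to 3′ on the strand of the gene, and cover the 250 bases before an annotated transcription start. Capitals mark the match to the element. ASNS lies at chr7:97872409-97872658, minus strand, and IARS1 at chr9:92293698-92293947, minus strand, and both hold the core of the C/EBP-ATF response element, TGATGNAA. XBP1 lies at chr22:28800570-28800819, minus strand, and CALR at chr19:12938359-12938608, plus strand, and both hold the ER stress response element, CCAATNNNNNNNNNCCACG. SDF2L1 lies at chr22:21642052-21642301, plus strand, and holds ER stress response element II, ATTGGNCCACG.
ASNS: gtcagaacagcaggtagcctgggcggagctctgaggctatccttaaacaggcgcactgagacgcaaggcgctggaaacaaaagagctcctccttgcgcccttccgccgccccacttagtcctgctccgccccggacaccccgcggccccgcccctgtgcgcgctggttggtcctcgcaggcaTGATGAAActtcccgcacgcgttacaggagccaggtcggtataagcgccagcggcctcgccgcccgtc
IARS1: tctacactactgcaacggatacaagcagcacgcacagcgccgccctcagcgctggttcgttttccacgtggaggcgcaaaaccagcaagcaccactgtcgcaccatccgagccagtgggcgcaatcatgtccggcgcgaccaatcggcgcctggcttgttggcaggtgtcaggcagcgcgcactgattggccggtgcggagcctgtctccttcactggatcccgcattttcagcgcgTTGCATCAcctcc
XBP1: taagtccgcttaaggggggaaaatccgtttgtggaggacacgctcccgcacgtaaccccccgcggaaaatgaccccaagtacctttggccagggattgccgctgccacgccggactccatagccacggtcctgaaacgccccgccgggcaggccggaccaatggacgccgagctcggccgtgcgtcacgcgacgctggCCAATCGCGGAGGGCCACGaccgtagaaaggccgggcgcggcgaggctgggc
CALR: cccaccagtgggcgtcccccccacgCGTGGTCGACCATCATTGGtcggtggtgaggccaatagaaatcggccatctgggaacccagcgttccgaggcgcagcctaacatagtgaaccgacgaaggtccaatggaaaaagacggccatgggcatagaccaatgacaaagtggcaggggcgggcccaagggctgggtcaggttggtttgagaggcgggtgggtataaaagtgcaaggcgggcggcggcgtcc
SDF2L1: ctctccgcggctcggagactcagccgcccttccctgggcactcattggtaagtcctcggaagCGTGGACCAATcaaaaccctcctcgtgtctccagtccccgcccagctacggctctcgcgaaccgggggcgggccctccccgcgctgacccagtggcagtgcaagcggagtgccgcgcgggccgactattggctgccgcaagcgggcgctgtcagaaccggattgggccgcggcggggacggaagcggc
The match in ASNS began 68 bases before the start and that in XBP1 52 bases before it, both in the direction of the gene. The matches in IARS1, CALR and SDF2L1 lay on the opposite strand, so their letters read in reverse complement.

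Promoter windows of 300 bases, from 250 bases before a start to 50 after it, were found for 40 of the 44 listed genes and searched on both strands. A gene with several windows counted once, and a match in any of its windows was enough. The ER stress response element was held by 8 of the 40, which were XBP1, HSPA5, HSP90B1, PDIA6, CALR, CANX, CRELD2 and ERO1B, against 0.0916% of the 27305 genes with a window. Element II was held by SDF2L1, HYOU1 and HERPUD1, against 0.0696% of all genes. Either form was present for 10 of the 17 listed ER genes and for 6 of the 8 measured here. The C/EBP-ATF core, a shorter and commoner string, was held by 5 of the 40 (ATF3, CEBPG, CHAC1, ASNS and HERPUD1) against 4.46% of all genes. In the ATF4 arm it was held by 4 of the 18 genes with a window. Of the 13 measured here with a window, 2 held it (ATF3 and ASNS). The UPR element, TGACGTGG, was found for HYOU1 only, which also held element II, against 0.927% of all genes. These counts describe letters in a window, and no binding was measured.

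The arrays had medians between 4.92 and 4.96 on the log2 scale, and no array repeated the values of another. Of the mesenchymal and epithelial genes typical of the line, VIM read 10.23 to 10.69, EGFR 10.48 to 11.10 and KRT18 9.78 to 10.67. CD44, listed with them, read lower, at 7.15 to 8.11. ESR1, the estrogen receptor, read 4.81 to 5.17, close to the array medians. PGR, the progesterone receptor, read 3.93 to 4.32, while the luminal genes GATA3 and EPCAM read 6.37 to 6.98 and 6.07 to 6.49, above the medians. PECAM1, an endothelial gene, and the fibroblast genes DCN and LUM read 2.91 to 4.52. CD68, listed as a leukocyte gene, read 11.42 to 11.88 on all 9 arrays. No detection calls were used, so a low reading is not called absent.

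Control 3 stood apart from the other controls in these genes, and the counts, and the listed genes whose calls turned on it, are therefore given with and without it. Nothing in the labels sets it apart. It was set apart by the values of these same genes. Leaving it out narrows their control spread by that choice, so counts and adjusted p-values without it are descriptive. They are no separate evidence of a fall or a rise. Controls 1 and 2 correlated at r = 0.995 over all rows, while control 3 correlated with them at 0.983. With replicates 1 to 3 of JQ1 12 h control 3 correlated at 0.983, 0.989 and 0.987, and with those of JQ1 24 h at 0.982, 0.986 and 0.981. Control 3 read below both other controls in 21 of the 28 genes, and by over 0.5 log2 below their mean in 17 (60.7%), against 7.36% of all genes. In the ATF4 arm 13 of 15 genes were lower by that margin, in the sensor group 3 of 5 and among the ER genes 1 of 8. The median of control 3 minus the mean of controls 1 and 2 was −1.55 for the ATF4 arm, −0.59 for the sensor group and 0.10 for the ER genes, against −0.01 for all genes. The widest gap was that of CTH, at −3.09, and SDF2L1 lay 1.08 higher in control 3. Set against the 6 JQ1 arrays, control 3 lay past their whole range in 11 of 28 genes, against 13.8% of all genes. Past means on the side of the JQ1 mean away from the mean of controls 1 and 2. That control mean could itself lie within the JQ1 range, as for HYOU1. Control 3 lay within the range of the JQ1 arrays in 9 genes, against 54.1% of all genes, and on the control side of it in 8, against 32.1%. ERO1B was among these 8, and there control 3 read below controls 1 and 2.

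**Figure D1:**
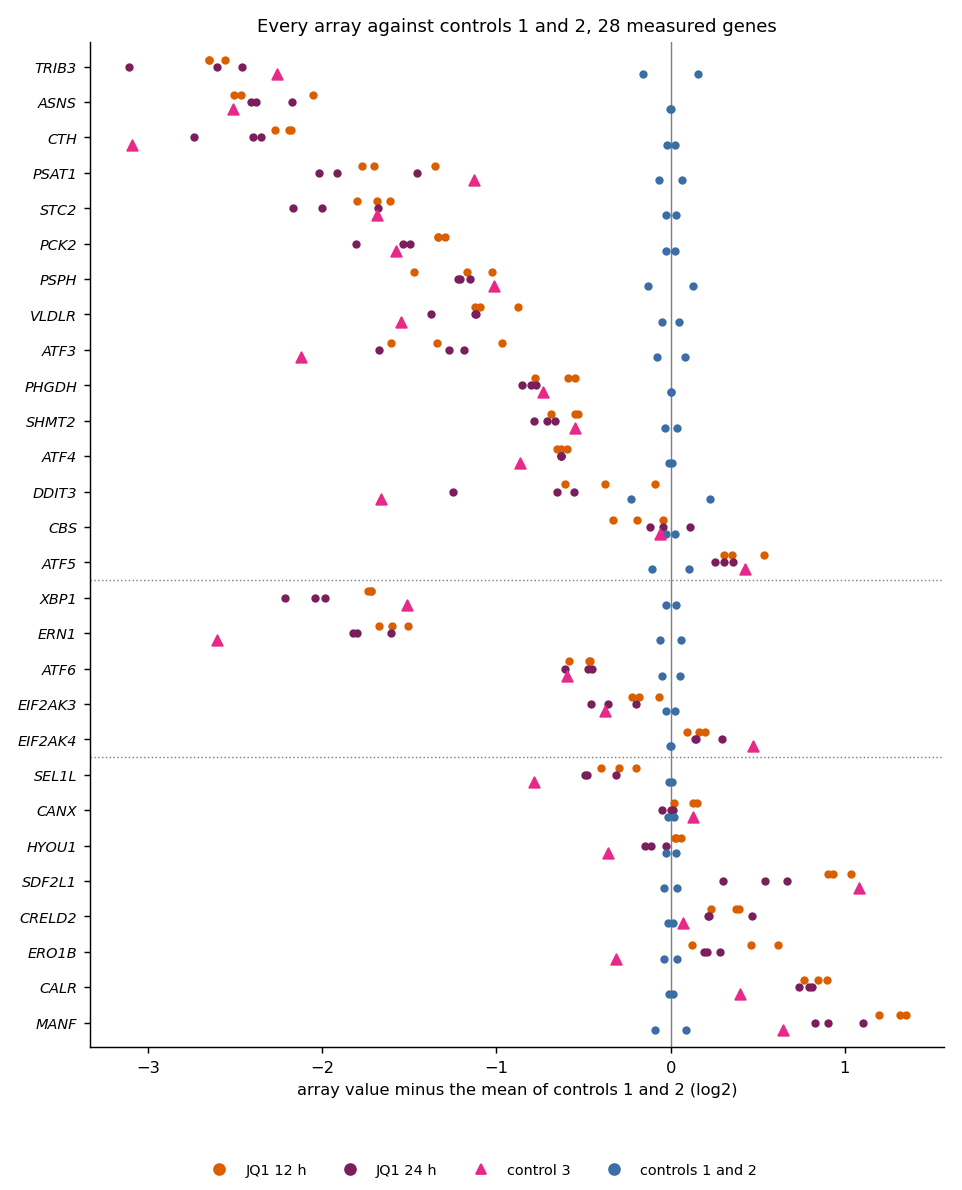
Each row is a gene and the horizontal axis is the array value minus the mean of controls 1 and 2 (log2), with 1 point per array and dotted lines between the ATF4 arm (top), the sensor group and the ER genes. Control 3 (triangles) sits with or past the JQ1 arrays in most ATF4-arm genes, at −3.09 for CTH, and between the JQ1 arrays and controls 1 and 2, for CALR, MANF and CRELD2.

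Differences were fitted for all 14884 named genes, and a gene is said to have risen or fallen when its adjusted p was under 0.05. At 12 h, 1 of the 28 genes fell (PSAT1) and 2 rose (CALR and MANF), against 4.39% of all genes lower and 3.54% higher. At 24 h, 4 fell (TRIB3, PSAT1, SHMT2 and XBP1) and the same 2 rose, against 6.34% lower and 5.17% higher. At 12 h these counts are near the background, and at 24 h the count of lower genes is above it, on 4 genes. Without control 3, 16 fell and 5 rose at 12 h, against 10.5% and 9.57% of all genes, and 18 fell and 3 rose at 24 h, against 11.3% and 9.61%. The comparisons at 12 h and 24 h share their controls. A lower reading in RNA from whole cultures can come from fewer cells with the transcript or from less of it per cell, which cannot be told apart.

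**Figure D2:**
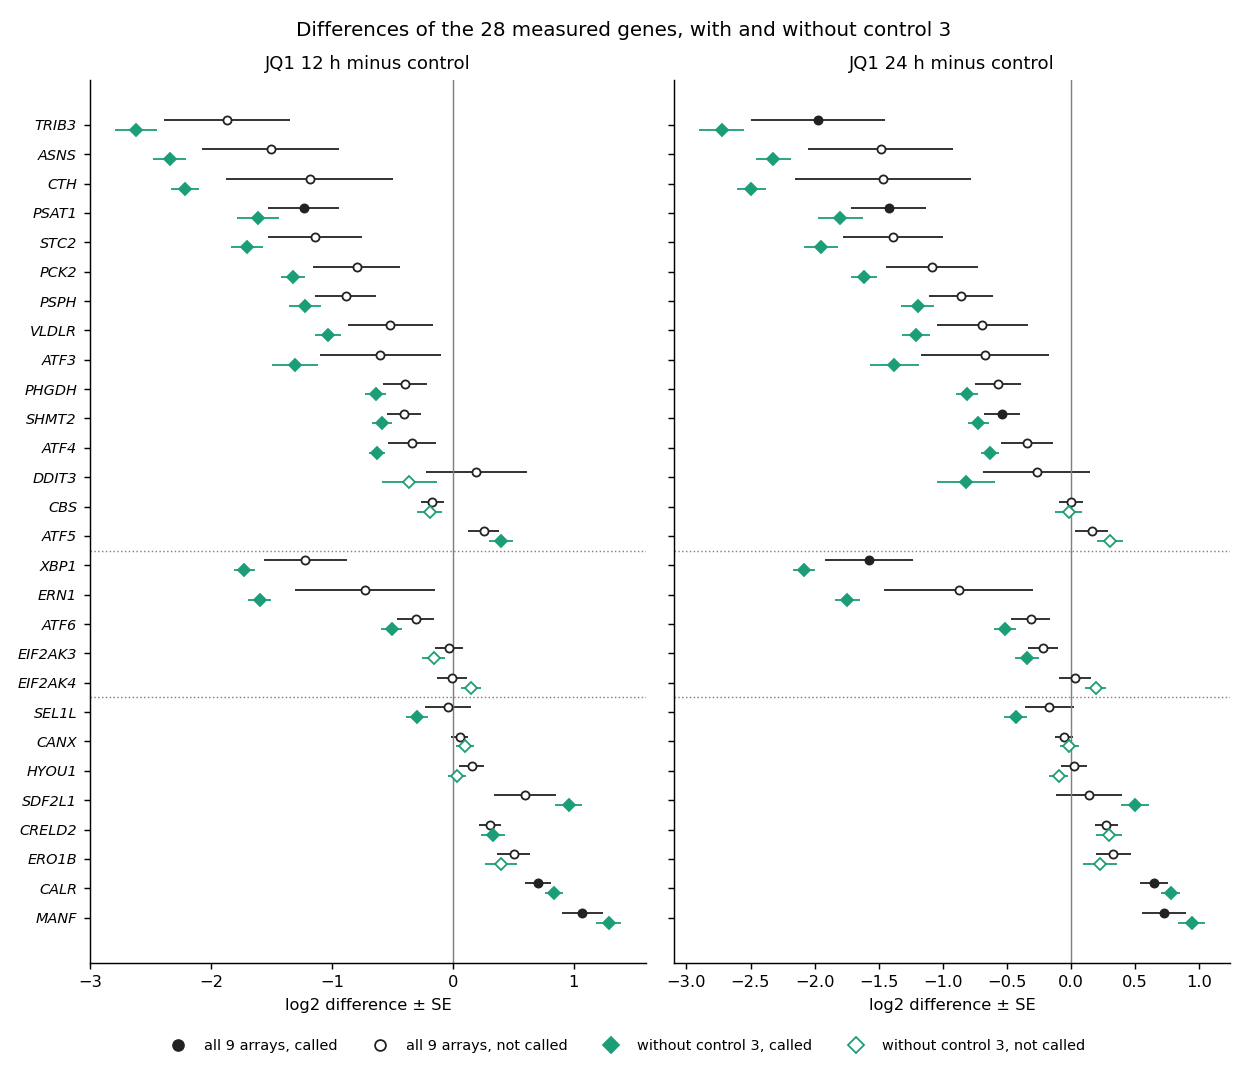
Each row is a gene, and the horizontal axes are log2 differences (JQ1 minus control) with the SE of the moderated fit, at 12 h (left) and 24 h (right). Circles use all 9 arrays and diamonds leave out control 3, filled where the adjusted p was under 0.05; TRIB3 at 24 h moves to −2.73 without control 3, against −1.97 with it, while CALR stays filled in both.

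In the ATF4 arm the JQ1 means lay below the mean of controls 1 and 2 for 14 of 15 genes at each time, but the fit over all 9 arrays called few of them. Of its 15 genes 1 fell and 0 rose at 12 h, and 3 fell and 0 rose at 24 h, against 4.39% and 6.34% of all genes lower, and the 12 h count is near that share. The median difference was −0.60 at 12 h and −0.69 at 24 h, against 0.01 for all genes at both times. Without control 3, 12 fell and 1 rose (ATF5) at 12 h, and 13 fell and 0 rose at 24 h, against 10.5% and 11.3% of all genes lower, with medians of −1.22 and −1.21. Without control 1 the medians were −0.30 and −0.44, and without control 2 −0.33 and −0.46. The JQ1 arrays did not overlap the 3 controls, and lay below them, for 3 genes at 12 h and 5 at 24 h, against 10.9% and 12.8% of all genes. Among replicates the median SD of these 15 genes was 0.12 at JQ1 12 h and 0.15 at JQ1 24 h, against 0.90 in controls.

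ATF4 itself read 9.49, 9.43 and 9.45 at JQ1 12 h and 9.45 on each array at JQ1 24 h, against 10.07, 10.09 and 9.21 in controls 1 to 3. The 6 JQ1 arrays were nearly alike and lay between control 3 and the other controls. JQ1 12 h replicate 3 and all JQ1 24 h arrays held the identical value, 9.44733, so the SD at JQ1 24 h was 0. Identical values between arrays also occurred in other listed genes, among them XBP1, PCK2, CBS and SHMT2. For SHMT2 the tie was between JQ1 12 h replicate 3 and control 3 (7.76905). Whether these ties come from the processing was not tested. The ATF4 difference was −0.34 ± 0.20 (SE) at both times and was not called (adjusted p = 0.402 and 0.352). Without control 3 it was −0.63 ± 0.07 at both, with adjusted p of 2.78e-04 and 2.54e-04. ATF4 activity is set largely by translation, which these arrays do not measure.

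ATF3, a stress-induced transcription factor that ATF4 activates, read 6.44, 6.18 and 6.82 at JQ1 12 h and 6.60, 6.11 and 6.51 at JQ1 24 h, against 7.70, 7.87 and 5.66 in controls 1 to 3. Again the JQ1 arrays lay below controls 1 and 2 and above control 3. The differences of −0.60 ± 0.50 and −0.67 ± 0.50 were not called, and without control 3 they were −1.31 ± 0.19 and −1.38 ± 0.19 (adjusted p = 0.00127 and 9.07e-04).

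DDIT3 encodes CHOP, the factor tied to cell death under lasting ER stress. It read 6.24, 6.47 and 6.76 at JQ1 12 h and 6.20, 5.60 and 6.29 at JQ1 24 h, against 7.08, 6.62 and 5.19 in controls 1 to 3. Its groups overlapped widely, and controls 1 and 2 differed by 0.45, the widest gap between them among the 28 genes. The 12 h difference was 0.20 ± 0.42 with all arrays and −0.36 ± 0.23 without control 3, and neither was called. At 24 h it was −0.27 ± 0.42, and −0.82 ± 0.23 without control 3 (adjusted p = 0.0309). ATF5, another stress factor under ATF4, averaged 6.98 ± 0.12 at JQ1 12 h and 6.89 ± 0.05 at JQ1 24 h, against 6.72 ± 0.27 in controls (SD, n = 3 each), and was called only without control 3, at 12 h (0.40 ± 0.10, adjusted p = 0.0196).

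Among feedback and secreted or surface targets, TRIB3 fell at 24 h. TRIB3, a pseudokinase that ATF4 and CHOP induce and that restrains both, read 7.18, 7.09 and 7.08 at JQ1 12 h and 7.13, 6.62 and 7.27 at JQ1 24 h, against 9.58, 9.89 and 7.48 in controls 1 to 3. Every JQ1 array lay below every control, but control 3 lay much nearer to the JQ1 arrays than to the other controls. The differences were −1.87 ± 0.52 at 12 h (adjusted p = 0.0633) and −1.97 ± 0.52 at 24 h (adjusted p = 0.0407), a 3.93-fold lower level at 24 h. Without control 3 they were −2.62 ± 0.18 and −2.73 ± 0.18, both called, and the 24 h call was lost when any other of the 9 arrays was left out, with adjusted p up to 0.136. STC2, a secreted glycoprotein, averaged 6.17 ± 0.10 at JQ1 12 h and 5.92 ± 0.25 at JQ1 24 h, against 7.31 ± 0.97 in controls, and just missed the threshold at 24 h (−1.39 ± 0.39, adjusted p = 0.0508). VLDLR, a lipoprotein receptor, differed by −0.52 and −0.69 and was not called. Without control 3 both genes were called lower at both times, STC2 with differences of −1.70 and −1.95 and VLDLR with −1.03 and −1.21.

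The amino acid and one-carbon enzymes held the other ATF4-arm calls: of 8 genes, 1 fell at 12 h and 2 at 24 h, and 7 fell at both times without control 3. Of all genes, 4.39% fell at 12 h and 6.34% at 24 h, and 10.5% and 11.3% without control 3. The 12 h count rests on PSAT1 alone. PSAT1, PHGDH and PSPH catalyse the steps of serine synthesis. PSAT1 read 10.23, 10.65 and 10.30 at JQ1 12 h and 10.08, 10.54 and 9.98 at JQ1 24 h, against 11.93, 12.06 and 10.87 in controls 1 to 3. All 6 JQ1 arrays lay below all 3 controls. It fell by 1.23 ± 0.29 log2 at 12 h (adjusted p = 0.0353) and by 1.42 ± 0.29 at 24 h (adjusted p = 0.0153), or 2.35-fold and 2.68-fold. Without control 3 the differences were −1.61 ± 0.18 and −1.80 ± 0.18. When each array was left out in turn, the call held in 2 of 9 fits at 12 h (without control 3 or JQ1 24 h replicate 2) and in 5 of 9 at 24 h, where it was lost without control 1 or 2 or JQ1 24 h replicate 1 or 3. PHGDH differed by −0.39 and −0.57 and PSPH by −0.88 and −0.86, with adjusted p between 0.0609 and 0.244, and without control 3 all of these differences were called.

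SHMT2, the mitochondrial enzyme that passes the carbon of serine to folate, read 7.79, 7.63 and 7.77 at JQ1 12 h and 7.65, 7.61 and 7.53 at JQ1 24 h, against 8.35, 8.28 and 7.77 in controls 1 to 3. The JQ1 24 h arrays lay below all controls, while the JQ1 12 h arrays overlapped control 3. It fell by 0.54 ± 0.14 log2 at 24 h (adjusted p = 0.0396), and by 0.72 ± 0.08 without control 3, when the 12 h difference of −0.59 ± 0.08 was called as well. Leaving out any array other than control 3 ended that call, with adjusted p up to 0.135.

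ASNS, which makes asparagine, showed the split between controls plainly. It read 8.09, 8.54 and 8.13 at JQ1 12 h and 8.19, 8.42 and 8.21 at JQ1 24 h, against 10.59, 10.60 and 8.08 in controls 1 to 3. Control 3 read below all 6 JQ1 arrays, and the other controls lay over 2 log2 units above them. The differences of −1.51 ± 0.57 and −1.48 ± 0.57 were not called (adjusted p = 0.155 and 0.138), and without control 3 they were −2.34 ± 0.14 and −2.32 ± 0.14 (adjusted p = 1.00e-05 and 8.83e-06). CTH, the last enzyme of transsulfuration, was alike: its JQ1 arrays read 7.05 to 7.14 at 12 h and 6.59 to 6.97 at 24 h, against 9.35, 9.30 and 6.23 in controls 1 to 3. PCK2, the mitochondrial enzyme that makes phosphoenolpyruvate, differed by −0.80 and −1.09 (adjusted p = 0.241 and 0.0892). Neither CTH nor PCK2 was called with all arrays, and without control 3 both were called lower at both times, CTH with differences of −2.21 and −2.49 and PCK2 with −1.32 and −1.61. CBS, the enzyme before CTH, differed by −0.17 at 12 h and 0.00 at 24 h and was not called with or without control 3.

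**Figure D3:**
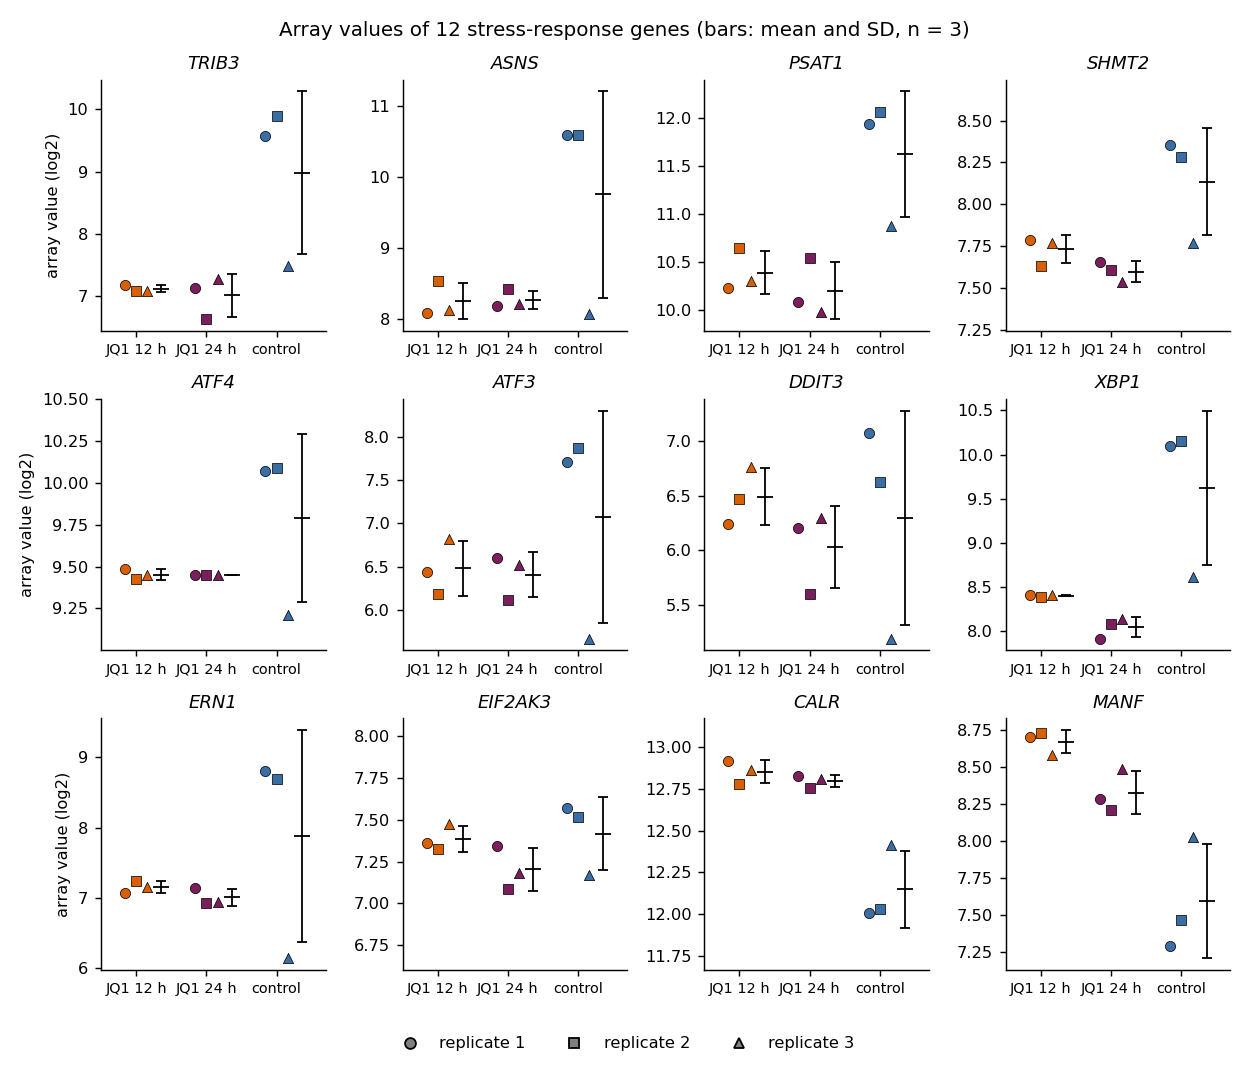
Each panel plots 1 gene, with 1 point per array on a log2 axis that does not start at 0, marker shape for the replicate number and bars for the mean and SD (n = 3). Control 3 (triangle) lies apart from controls 1 and 2 in nearly all panels, below every JQ1 array for ASNS, ATF4, ATF3, DDIT3 and ERN1, while CALR and MANF read above all controls on all 6 JQ1 arrays.

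Of the sensors and their factors, XBP1 fell at 24 h and none of the other 4 was called in the fit over all arrays. Of all genes, 6.34% fell at 24 h. XBP1, whose spliced messenger encodes the factor of the IRE1 branch, read 8.41, 8.39 and 8.41 at JQ1 12 h and 7.91, 8.08 and 8.14 at JQ1 24 h, against 10.10, 10.16 and 8.61 in controls 1 to 3. Every JQ1 array lay below every control. It differed by −1.22 ± 0.34 at 12 h (adjusted p = 0.0640) and fell by 1.58 ± 0.34 log2 at 24 h (adjusted p = 0.0187), 2.98-fold. Without control 3 the differences were −1.73 ± 0.09 and −2.08 ± 0.09, both called, and leaving out controls 1 or 2 or any JQ1 24 h array ended the 24 h call (adjusted p up to 0.0742). The row does not separate spliced from unspliced messenger.

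ERN1, the IRE1 sensor, read 7.08, 7.24 and 7.15 at JQ1 12 h and 7.15, 6.93 and 6.95 at JQ1 24 h, against 8.81, 8.69 and 6.15 in controls 1 to 3. Its JQ1 arrays lay between control 3 and the other controls, and the differences of −0.73 ± 0.58 and −0.88 ± 0.58 were not called. Without control 3 they were −1.60 ± 0.10 and −1.74 ± 0.10 (adjusted p = 1.09e-05 and 5.68e-06).

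EIF2AK3, the PERK kinase, read 7.36, 7.32 and 7.47 at JQ1 12 h and 7.34, 7.09 and 7.18 at JQ1 24 h, against 7.57, 7.52 and 7.17 in controls 1 to 3. The groups overlapped, with differences of −0.03 ± 0.12 and −0.21 ± 0.12 that were not called, and without control 3 the 24 h difference was −0.34 ± 0.09 (adjusted p = 0.0312). ATF6 averaged 9.69 ± 0.07 at JQ1 12 h and 9.68 ± 0.08 at JQ1 24 h, against 10.00 ± 0.35 in controls, and was called at both times only without control 3 (−0.50 and −0.51). EIF2AK4, the GCN2 kinase, differed by −0.01 and 0.04 and was called in neither fit.

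Among the ER chaperones and folding enzymes the called genes were higher under JQ1, not lower. Of the 8 ER genes 2 rose and 0 fell at each time, against 3.54% of all genes higher at 12 h and 5.17% at 24 h. The median differences were 0.41 at 12 h and 0.21 at 24 h, the second of which was 0.13 without JQ1 24 h replicate 3. The JQ1 arrays lay wholly above the 3 controls for 4 of the 8 at each time (CALR, MANF, CRELD2 and ERO1B), against 11.3% of all genes at 12 h and 13.3% at 24 h. Without control 3, 4 rose and 1 fell at 12 h, and 3 rose and 1 fell at 24 h. Of all genes, 9.57% and 9.61% were then higher and 10.5% and 11.3% lower.

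CALR, the calcium-binding lectin chaperone calreticulin, read 12.91, 12.78 and 12.86 at JQ1 12 h and 12.83, 12.75 and 12.81 at JQ1 24 h, against 12.00, 12.03 and 12.41 in controls 1 to 3. All 6 JQ1 arrays lay above all controls, and control 3 lay on the control side of the gap. It rose by 0.70 ± 0.11 log2 at 12 h (1.63-fold, adjusted p = 0.00617) and by 0.65 ± 0.11 at 24 h (1.57-fold, adjusted p = 0.00667). The call held at both times when each of the 9 arrays was left out in turn, with adjusted p up to 0.0322 and 0.0332. Its promoter is the one shown with the ER stress response element 225 to 207 bases before the start. Either form of the element was held by 6 of the 8 measured ER genes, and of these only CALR was called with all arrays. MANF held neither form, and XBP1, which fell at 24 h, held the element.

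MANF, a small ER protein that binds the chaperone BiP and is secreted under stress, read 8.70, 8.73 and 8.58 at JQ1 12 h and 8.28, 8.21 and 8.49 at JQ1 24 h, against 7.29, 7.47 and 8.03 in controls 1 to 3. The JQ1 arrays lay above all controls, with control 3 the nearest to them. It rose by 1.07 ± 0.17 log2 at 12 h (2.10-fold, adjusted p = 0.00667) and by 0.73 ± 0.17 at 24 h (1.66-fold, adjusted p = 0.0249). The 12 h call held whichever array was left out, and the 24 h call was lost without control 1 or 2 or JQ1 24 h replicate 1 or 3 (adjusted p up to 0.103).

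The other ER genes were not called with all arrays. CRELD2, an ER protein with disulfide isomerase activity, read 6.94 to 7.10 at JQ1 12 h and 6.92 to 7.17 at JQ1 24 h, against 6.69 to 6.77 in controls (adjusted p = 0.0709 and 0.0836), and was called at 12 h without control 3 (adjusted p = 0.0433). ERO1B, an oxidase that recharges protein disulfide isomerase, averaged 6.57 ± 0.25 at JQ1 12 h and 6.40 ± 0.05 at JQ1 24 h, against 6.06 ± 0.19 in controls (adjusted p = 0.0538 and 0.159). For both genes the JQ1 arrays cleared all controls, by less than the fit requires for a call. SDF2L1, a partner of ER chaperone complexes, averaged 7.87 ± 0.07 at JQ1 12 h and 7.42 ± 0.19 at JQ1 24 h, against 7.27 ± 0.62 in controls. Control 3 was its highest array, at 7.99 against 6.88 and 6.95 in controls 1 and 2, and without it SDF2L1 was called higher by 0.96 ± 0.11 at 12 h and 0.50 ± 0.11 at 24 h. CANX, the membrane lectin chaperone calnexin, differed by 0.06 and −0.05, and HYOU1, a large ER chaperone, by 0.16 and 0.03, and neither was called with or without control 3. The second, dimmer row of HYOU1 gave 0.20 and −0.02. SEL1L, the adaptor of the ER-associated degradation ligase and the only degradation gene among the 28, differed by −0.04 and −0.17, and was called lower only without control 3 (−0.30 and −0.43).

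Between the JQ1 times none of the 28 genes was called, with or without control 3. Over all genes 0.00672% were called with all arrays and 0.148% without control 3. The lowest adjusted p among the 28 was 0.772, and 0 of 28 had an unadjusted p under 0.05 with all arrays, against 6 of 28 without control 3. The differences, 24 h minus 12 h, ran from −0.46 (DDIT3) to 0.17 (CBS), and 24 of 28 were below 0. All 8 ER genes were lower at 24 h, and the JQ1 24 h arrays lay wholly below the JQ1 12 h arrays for 4 of them (CANX, SDF2L1, HYOU1 and MANF) and for 7 of all 28, against 7.11% of all genes. SDF2L1 differed by −0.45 ± 0.26, MANF by −0.34 ± 0.17 and XBP1 by −0.36 ± 0.34. These SEs rest on a spread shared by the 3 groups, so control 3 widens them though no control enters the differences. Without control 3 they were 0.10, 0.09 and 0.08, with adjusted p of 0.124, 0.194 and 0.119.

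Cytosolic aminoacyl-tRNA synthetases, which charge transfer RNA and include many ATF4 targets, were the further list with the most calls. Of 17 measured genes among 20 listed, 5 fell at 12 h (AARS1, EPRS1, IARS1, LARS1 and NARS1) and 10 at 24 h, which added GARS1, MARS1, TARS1, VARS1 and YARS1, while 1 rose at each time. The background was 4.39% lower and 3.54% higher at 12 h, and 6.34% and 5.17% at 24 h. The median differences were −0.62 and −0.77, and without control 3 they were −0.99 and −1.15, with 12 and 13 genes lower and 3 higher. The background without control 3 was 10.5% lower and 9.57% higher at 12 h, and 11.3% and 9.61% at 24 h. Leaving out any other array lowered the number called, in either direction, to 2 or 3 at 12 h and to between 3 and 7 at 24 h. Control 3 was lower than the mean of controls 1 and 2 by over 0.5 log2 in 10 of the 17, against 7.36% of all genes. It lay outside the range of the JQ1 arrays on the control side in 10, against 32.1% of all genes. VARS1 was among the latter 10, and there control 3 read above controls 1 and 2. The C/EBP-ATF core was found for 7 of the 16 listed synthetases with a promoter window, against 4.46% of all genes.

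IARS1 and LARS1 charge the transfer RNAs of isoleucine and leucine, and neither call rested on a single array. IARS1 read 10.16, 10.33 and 10.27 at JQ1 12 h and 10.12, 10.29 and 10.09 at JQ1 24 h, against 11.30, 11.33 and 10.86 in controls 1 to 3. LARS1 read 8.73, 8.71 and 8.92 at JQ1 12 h and 8.80, 8.57 and 8.70 at JQ1 24 h, against 9.92, 9.96 and 9.43 in controls 1 to 3. In both genes control 3 was the lowest control and yet lay above all JQ1 arrays. IARS1 fell by 0.91 ± 0.13 log2 at 12 h (adjusted p = 0.00409) and by 1.00 ± 0.13 at 24 h (adjusted p = 0.00186), and LARS1 by 0.98 ± 0.14 (adjusted p = 0.00470) and 1.08 ± 0.14 (adjusted p = 0.00222). Leaving out each array in turn raised the adjusted p to at most 0.0257 at 12 h and 0.0144 at 24 h.

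Other synthetases had a wider spread in controls. AARS1, the alanine enzyme, read 9.99, 10.04 and 9.95 at JQ1 12 h and 9.93, 9.95 and 9.93 at JQ1 24 h, against 11.74, 11.78 and 10.31 in controls 1 to 3. It fell by 1.29 ± 0.33 log2 at 12 h (adjusted p = 0.0440) and by 1.34 ± 0.33 at 24 h (adjusted p = 0.0292), and its calls were lost when any array other than control 3 was left out. YARS1, GARS1 and MARS1, the tyrosine, glycine and methionine enzymes, fell at 24 h by 1.21, 0.97 and 0.93 log2 (adjusted p = 0.0243, 0.0364 and 0.0445). The calls of GARS1 and MARS1 were likewise lost without any array other than control 3, with adjusted p up to 0.132 and 0.146. YARS1 kept its call without control 3 or any JQ1 12 h array and lost it otherwise, with adjusted p up to 0.0925. QARS1, the glutamine enzyme and the only synthetase that rose with all arrays, is named after its values were seen: it averaged 9.65 ± 0.07 at JQ1 12 h and 9.68 ± 0.16 at JQ1 24 h, against 8.98 ± 0.39 in controls (adjusted p = 0.0496 and 0.0342). No synthetase was called higher when any array other than control 3 was left out.

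**Figure D4:**
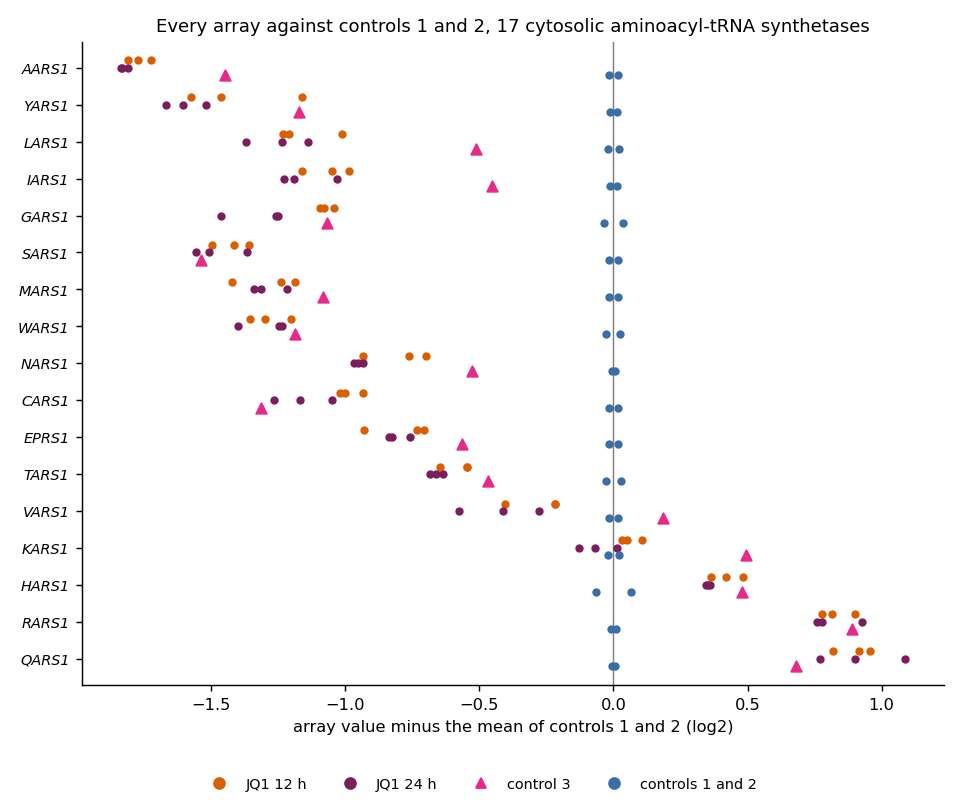
Each row is a synthetase and the horizontal axis is the array value minus the mean of controls 1 and 2 (log2), with 1 point per array. All JQ1 points of IARS1 and LARS1 lie below control 3 (triangles), which sits 0.45 and 0.51 under controls 1 and 2, while QARS1, RARS1 and HARS1 lie above controls 1 and 2 on every JQ1 array and in control 3.

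Of 10 measured genes among 22 other ATF4-responsive genes, 2 fell at each time, MTHFD1L and PYCR1, and 0 rose, while without control 3, 8 fell at 12 h and 7 at 24 h. The share of all genes lower was 4.39% at 12 h and 6.34% at 24 h, and 10.5% and 11.3% without control 3. MTHFD1L, a mitochondrial folate enzyme that makes formate, read 7.69, 7.52 and 7.45 at JQ1 12 h and 7.41, 7.45 and 7.46 at JQ1 24 h, against 8.89, 8.83 and 8.53 in controls 1 to 3. All controls lay well above the JQ1 arrays, control 3 included. It fell by 1.20 ± 0.11 log2 at 12 h (2.30-fold, adjusted p = 6.98e-04) and by 1.31 ± 0.11 at 24 h (2.48-fold, adjusted p = 2.51e-04), and kept its call whichever array was left out (at most 0.00622 and 0.00296). PYCR1, which makes proline, fell by 0.78 ± 0.19 and 0.90 ± 0.19 log2 (adjusted p = 0.0417 and 0.0185). Its 12 h call held only without control 3, and its 24 h call was lost without control 1 or 2 or JQ1 24 h replicate 2 or 3.

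SESN2, a sestrin that restrains mTORC1, split like ASNS: it read 7.57, 7.55 and 7.61 at JQ1 12 h and 7.59, 7.04 and 7.37 at JQ1 24 h, against 10.03, 9.98 and 6.74 in controls 1 to 3. Control 3 was its lowest array and the differences of −1.34 ± 0.73 and −1.58 ± 0.73 were not called. VEGFA, a secreted angiogenic factor, averaged 7.31 ± 0.15 at JQ1 12 h and 7.18 ± 0.03 at JQ1 24 h, against 8.81 ± 1.41 in controls, and was not called (adjusted p = 0.142 and 0.0921). Without control 3 both genes were called lower at both times, SESN2 by −2.43 and −2.67 and VEGFA by −2.30 and −2.43.

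Among the eIF2 kinases, phosphatase and core subunits only 2 of 14 listed genes were measured, and 1 of them rose. Of all genes, 3.54% rose at 12 h and 5.17% at 24 h. EIF2AK1, the heme-regulated eIF2 kinase, read 9.99, 9.97 and 10.02 at JQ1 12 h and 10.14, 9.82 and 10.01 at JQ1 24 h, against 8.87 in control 2 and 9.57 in control 3, with control 1 between them. All JQ1 arrays lay above all controls. It rose by 0.85 ± 0.17 log2 at 12 h (adjusted p = 0.0165) and by 0.84 ± 0.17 at 24 h (adjusted p = 0.0130). At 12 h the call was lost without control 1 or 2 or any JQ1 12 h array (adjusted p up to 0.0685), and at 24 h without control 1 or JQ1 24 h replicate 1 or 3 (up to 0.0575).

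The 18 measured of 36 other ER folding, degradation and stress genes had median differences of 0.01 and 0.00 at the 2 times, close to those of all genes. Of the 18, 1 rose at 12 h and 2 at 24 h, against 3.54% and 5.17% of all genes. The JQ1 arrays lay wholly above the 3 controls for 5 at each time, against 11.3% and 13.3% of all genes. They lay wholly below for 1 at each time, against 10.9% and 12.8%. WFS1, the ER membrane protein wolframin, rose by 0.54 ± 0.10 log2 at 12 h and 24 h (adjusted p = 0.0159 and 0.0121). It read 8.29 to 8.47 at JQ1 12 h and 8.21 to 8.60 at JQ1 24 h, against 7.90, 7.89 and 7.78 in controls 1 to 3, which were alike. Its 12 h call was lost without control 2 or JQ1 12 h replicate 1 or 2 (adjusted p up to 0.0658), and its 24 h call held whichever array was left out. CREB3, an ER-anchored factor of the ATF6 kind, rose at 24 h only (0.62 ± 0.15, adjusted p = 0.0319), a call that held in 4 of 9 fits with an array left out (without control 1 or 3, JQ1 12 h replicate 1 or JQ1 24 h replicate 2). No gene of this list fell with all arrays. Without control 3, 2 rose at each time, and 1 fell at 12 h and 3 at 24 h. Of all genes, 9.57% and 9.61% were then higher and 10.5% and 11.3% lower.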

How the data were processed

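The authors deposited 1 table of processed log2 values for the 9 single-channel arrays (53617 rows), and the log2 unit was read from the values, 2.01 to 13.88. The submitters' processing notes name Transcriptome Analysis Console; the normalization is not stated in any source at hand. Because array medians are nearly equal, a difference is relative to other genes. The number of arrays limits the precision.

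The platform's gene table named 16098 rows, all matched to RefSeq (GRCh38.p14) by gene ID, which gave 14884 genes. In limma 3.58.1 (R 4.3.3) a model with a mean for each of the 3 groups used all 9 arrays, with empirical Bayes moderation and Benjamini-Hochberg adjustment over all genes within a comparison (threshold 0.05). The model was also run on simulated data with independent noise on each array. No simulated array departed from its group as control 3 does, so that run cannot speak to the effect of control 3.

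The genes and lists were chosen with earlier results of these data known. Array values are printed for listed genes called in any comparison and for ATF4, DDIT3, ATF3, TRIB3, ASNS, PSAT1, XBP1, EIF2AK3 and ERN1; CHAC1, HSPA5 and DNAJB9 were in the same rule. Genes of 4 further lists are named where called, up to 6 a list by size, with SESN2 and VEGFA (EIF2S1 had no named row). EPRS1, NARS1, TARS1, VARS1, QARS1, RARS1 and HARS1 were named after their values were seen. Alternatives left out each array, blocked on the replicate number, fitted only the groups compared, used a trended prior, filtered dim genes, averaged rows, tested all rows, renormalized and weighted arrays.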

Additional observations from a re-analysis of the deposited data

How the results depend on the processing

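Control 3 decided most counts, and leaving it out raised the calls over all genes as well. At 12 h these were 4.39% lower and 3.54% higher with all arrays, and 10.5% and 9.57% without control 3. At 24 h they were 6.34% and 5.17%, and 11.3% and 9.61% without control 3. Shares over all genes are not given for the other settings. Their counts therefore show only how the calls depend on the setting, and are no result about these genes. When each of the 9 arrays was left out in turn, the number of the 28 genes called ranged from 2 to 21 at 12 h and from 1 to 21 at 24 h, with 21 in both cases without control 3, and was 0 in every such fit between the times. At 24 h it was 1 without control 1, without control 2 and without the first or the third JQ1 24 h array, and 3 without the second. Weighting arrays by quality gave 21 called genes at each time (6 higher and 15 lower at 12 h, 4 higher and 17 lower at 24 h). Fitting only the groups compared gave 1 at 24 h, testing all rows gave 3 at 24 h, and a filter on dim genes gave 7 at 12 h. The trended prior, averaging rows, quantile normalization and subtracting array medians kept these counts within 1.5 times of those reported. Signs turned for 2 genes that were not called. DDIT3 differed at 12 h by −0.36 (without control 3) to 0.59 (without control 1) and by −0.26 with array weights, and at 24 h by −0.82 (without control 3) to 0.13 (without control 1). EIF2AK3 differed at 12 h by −0.16 (without control 3) to 0.043 (without control 1). The cause was not tested. The replicate block gave 3, 7 and 0 called genes at 12 h, at 24 h and between the times, and ended the 24 h calls of TRIB3 (adjusted p = 0.0598) and MARS1 (adjusted p = 0.0654), while YARS1 passed at 12 h (adjusted p = 0.0414). The labels do not pair the samples by number, and deviations of same-numbered arrays correlated between −0.32 and 0.22. Of all recomputed values, 902 kept their side or size, 5 changed sign and the others moved, weakened or strengthened. No detection calls were used, so how far a dim gene lay above background is unknown.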
